A study of Rattus norvegicus with 24 samples.

Results

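The 4 lung samples numbered 2 (A2, B2, C2 and G2) were compared with the 16 samples numbered 3, 4, 5 and 6 of the same letters, out of 24 rat lung samples in all. The members were chosen by the number in the sample title, and the 4 samples numbered 1 were left out of the comparison. Lung tissue of Rattus norvegicus was profiled by mRNA sequencing as part of a lung cancer model, and every sample, those of the reference included, carries the label smoky coal. Smoke of this fuel contains polycyclic aromatic hydrocarbons. The labels give neither the meaning of the letters A, B, C and G nor that of the numbers, and they name no control, strain, genotype, sex, age, dose or time. They do not say that samples come from separate animals, so the p-values measure only the spread between these samples, which may be technical.

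The lung holds a thin gas-exchange surface of alveolar type 1 cells and capillary endothelium, type 2 cells that make surfactant, airway epithelium and resident macrophages. When it is inflamed, interferons and tumour necrosis factor induce chemokines that draw in monocytes and T cells, and macrophages switch on genes such as Acod1, whose enzyme makes the antimicrobial metabolite itaconate. Promoters of interferon-induced genes often carry an interferon-stimulated response element, those of many cytokine-induced genes a site for NF-kappaB, and those of cell division genes CCAAT boxes and the element called CHR.

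Promoter sequences are shown for 4 genes that were higher in the samples numbered 2: the chemokines Cxcl10 and Cxcl11, the interferon-induced GTPase Gbp2 and the topoisomerase Top2a of dividing cells. They come from RefSeq, rat build GRCr8, and run 5′ to 3′ on the strand of the gene. Cxcl10 lies at chr14:15988816-15989006 (plus strand), Cxcl11 at chr14:15973608-15973708 (plus strand), Gbp2 at chr2:234005637-234005726 (plus strand) and Top2a at chr10:84473094-84473183 (minus strand), and each stretch ends before the start site. Capitals mark matches on either strand to the core of the interferon-stimulated response element (GAAA, any 2 bases, GAAA; Cxcl10 and Gbp2), to the kappaB letters of NF-kappaB sites (GGGA, any 2 bases, TTCC; Cxcl10 and Cxcl11), and to CCAAT and TTTGAA, the CHR letters (Top2a). The longest run of capitals in Cxcl10 holds 2 overlapping kappaB matches, 1 on each strand.
Cxcl10: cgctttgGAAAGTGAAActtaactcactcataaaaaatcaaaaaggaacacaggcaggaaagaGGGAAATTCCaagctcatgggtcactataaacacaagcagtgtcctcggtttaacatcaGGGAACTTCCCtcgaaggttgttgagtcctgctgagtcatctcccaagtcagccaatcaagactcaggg
Cxcl11: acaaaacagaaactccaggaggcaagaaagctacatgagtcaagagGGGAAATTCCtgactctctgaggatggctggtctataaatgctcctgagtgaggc
Gbp2: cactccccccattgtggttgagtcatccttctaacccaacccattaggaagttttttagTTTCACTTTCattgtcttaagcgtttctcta
Top2a: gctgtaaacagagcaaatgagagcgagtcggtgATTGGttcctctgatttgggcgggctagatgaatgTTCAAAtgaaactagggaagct

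In the 250 bases before the start site, the response element letters were found in 14 of 18 promoters of the list of interferon-stimulated genes. They were found in 5 of 7 of those called higher and in 2.65% of all 12853 promoters. The kappaB letters were found in 4 of 20 promoters of the chemokine list and in 4 of 13 of those called higher, against 1.28% of all. CCAAT occurred in 15 of 19 and TTTGAA in 7 of 19 promoters of the higher proliferation genes, against 34.8% and 11.1% of all promoters. For the whole proliferation list the counts were 16 of 21 and 7 of 21. Among genes shared by all 4 letters, defined below, the response element letters were found in 3.03% of the higher and 2.17% of the lower. The kappaB letters were found in 2.11% and 1.84% of these, CCAAT in 38.5% and 29.4%, and TTTGAA in 14.4% and 10.4%. These are matches of letters, not measured binding.

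Values are normalized read counts per gene as deposited, with sums of 62243956 to 64490531 in the samples numbered 2 and 61717516 to 66007148 in the 16 others, so that read depth before normalization is unknown. Each gene was tested with limma on log2(value + 1), with the letter as a block, and a gene was called at an adjusted p under 0.05 (Benjamini-Hochberg over 30667 genes). Log2 fold changes are on this scale and come out too small for genes of low value. Of all genes, 15.1% (4616) were called, 8.45% higher (2592) and 6.6% lower (2024). The split of the calls depends on the scaling: 56.2% of them were higher with the deposited values and 32.8% (1436 of 4379) after scaling to the 75th percentile of each sample, which moved the median of all genes from 0.001 to -0.085. A called gene is termed shared by all 4 letters when each of A2, B2, C2 and G2 also lay outside the range of its own letter's numbers 3 to 6 on the side of the call. That held for 2108 genes, 1215 higher (3.96% of all genes) and 893 lower (2.91%). Another 2092 called genes had 3 letters on that side, 413 had 2 and 3 had 1. The sample A2 carries much of the count: without it 1501 genes were called, and 1243 of the calls were shared by the 3 letters left.

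Acod1 had the highest fold change of the named shared genes. Its values were 5023 in A2, 1381 in C2, 234 in B2 and 54.2 in G2, against 7.09 to 58.1 (median 16) in the 16 reference samples. All 4 samples were above their own letter, although G2 lay inside the range of the 16. The log2 fold change was 4.89 ± 0.63 (SE; n = 4 and 16; limma adjusted p = 8.83e-05). The chemokine Cxcl11, which attracts T cells through CXCR3, read 983 in A2, 333 in C2, 109 in B2 and 21.8 in G2, with a median of 8.21 and a maximum of 64.2 in the reference. Its log2 fold change was 4.26 ± 0.65 (adjusted p = 0.000299, limma). Cxcl10, a ligand of the same receptor, had 833 in A2, 278 in C2, 98.5 in B2 and 41.8 in G2, against 13 to 77.2 (median 22.2), with a log2 fold change of 2.86 ± 0.42 (adjusted p = 0.00023, limma). For both chemokines G2 overlapped the reference. For Acod1, Cxcl10 and Cxcl11 the order of the samples was the same, A2 over C2 over B2 over G2.

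**Figure D1:**
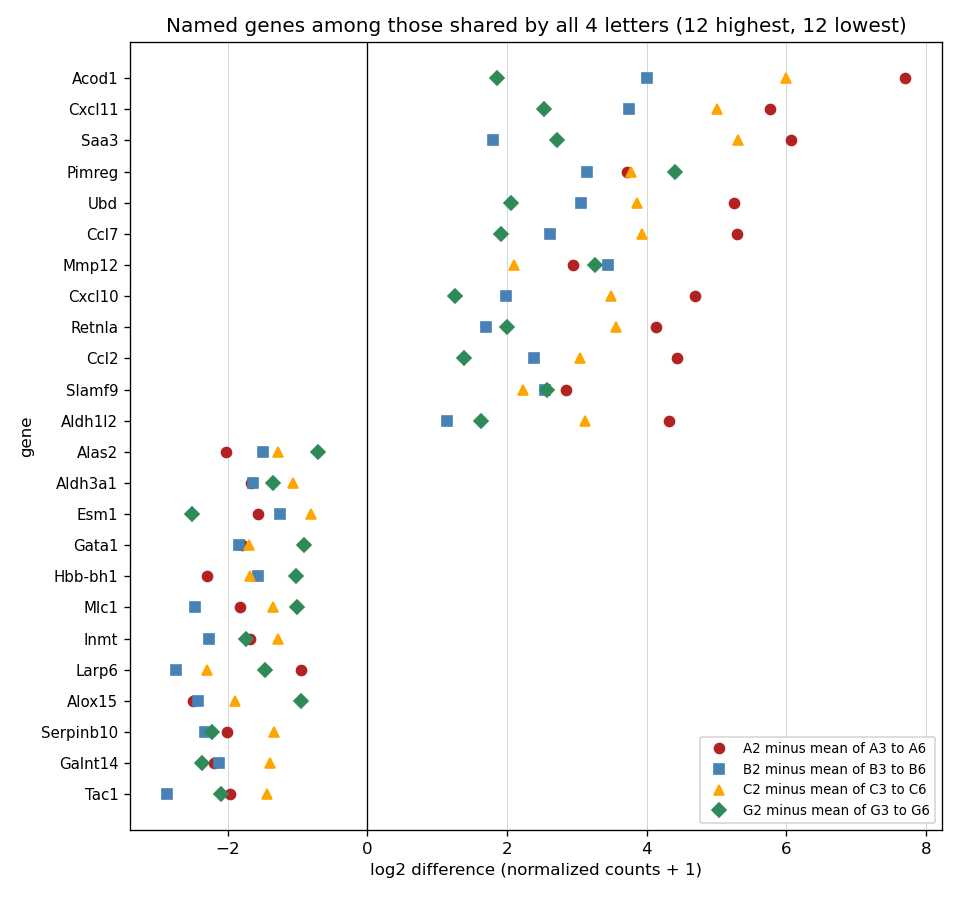
The 12 highest and 12 lowest named genes among those shared by all 4 letters. Each point is the log2 difference (normalized counts + 1) of A2, B2, C2 or G2 from the mean of numbers 3 to 6 of its letter; the points of each gene lie on 1 side of 0, and A2 and C2 reach farthest for genes such as Acod1 (7.70 and 5.99), while Mmp12 and Pimreg are closer together.

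The monocyte attractants Ccl2 and Ccl7, which act through CCR2, had log2 fold changes of 2.81 ± 0.33 and 3.44 ± 0.64 (adjusted p = 4.25e-05 and 0.00145, limma). Ccl2 read 3446 in A2, 1098 in C2, 393 in B2 and 193 in G2, against a median of 98.8 and a maximum of 226, so that only G2 overlapped the reference. Saa3, a serum amyloid A protein of the acute phase, read 7685 in A2, 4799 in C2, 421 in B2 and 399 in G2, all above the reference maximum of 253. Its difference varied among the letters (F test adjusted p = 0.0257), at 6.07 and 5.31 in A and C and 1.80 and 2.71 in B and G on the log2 scale. Ubd, a ubiquitin-like protein induced by interferon gamma and tumour necrosis factor, lay between 766 (G2) and 11210 (A2), above all 16 reference samples (98 to 739), with a log2 fold change of 3.56 ± 0.42. Retnla, a resistin-like protein of type 2 immunity, had a log2 fold change of 2.85 ± 0.48. Aldh1l2, a mitochondrial enzyme of folate metabolism, had 2.55 ± 0.38.

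A second set of shared genes was of similar size in the 4 letters. Mmp12, the macrophage elastase, read 648 in A2, 857 in B2, 508 in C2 and 1797 in G2, against 44.1 to 305 (median 123). The groups did not overlap, and the log2 fold change was 2.94 ± 0.34 (adjusted p = 3.81e-05, limma). Slamf9, a receptor of the SLAM family on myeloid cells, lay at 1096 to 1885 in the samples numbered 2 and at 153 to 500 in the reference, with differences of 2.23 to 2.85 by letter. Pimreg, a regulator of mitosis, was highest in G2 (407) and lay at 125 to 156 in the other 3, against at most 57.1 in the reference, with a log2 fold change of 3.76 ± 0.47.

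The lowest shared genes did not single out A2 and C2. Serpinb10, a serine protease inhibitor, had 428 in A2, 419 in B2, 833 in C2 and 359 in G2, against 1377 to 2395 (median 1934). Its groups were apart, and at -1.97 ± 0.12 it had the smallest adjusted p of the named genes (4.42e-08, limma). Tac1, the precursor of the neuropeptides substance P and neurokinin A, lay at 29.8 to 88.7 against 144 to 345, with a log2 fold change of -2.09 ± 0.20. The glycosyltransferase Galnt14 read 93.5 to 191 against 341 to 1064, with -2.02 ± 0.24, and Inmt, an N-methyltransferase, read 1876 to 3016 against 4021 to 15050, with -1.74 ± 0.25. The samples numbered 2 were below all 16 reference samples for Tac1, Galnt14 and Inmt, and also for Larp6, which binds collagen mRNAs (-1.86), Mlc1 (-1.66) and Aldh3a1, an aldehyde dehydrogenase (-1.43). Esm1, the endothelial proteoglycan endocan, had -1.54 ± 0.26, lowest in G2 at 989. The samples numbered 1, outside the comparison, were low for some of these genes as well. They read 13.1 to 36.5 for Larp6 and 170 to 273 for Galnt14, below all 16 reference samples. Inmt read 2478 to 4090 in them, Aldh3a1 172 to 317, Esm1 2271 to 3303, Tac1 106 to 148 and Mlc1 203 to 380.

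Alox15, a lipoxygenase of arachidonic acid, had a log2 fold change of -1.94 ± 0.50 (adjusted p = 0.0125, limma), with 1466 to 4518 in the samples numbered 2 and a wide reference of 1949 to 49080. Within the reference, G3 to G6 read 1949 to 4128 and the samples of A, B and C 6341 to 49080. The values of A, B and C also differed by number, from 40090 to 49080 at number 4 to 6341 to 6832 at number 6. The samples numbered 1, outside the comparison, read 2710 to 5014. The call was lost without A2 (-1.75, adjusted p = 0.0973) and also without B2, 4 of 31 alternatives in all. Genes of red blood cells were lower: 5 of the 7 measured were called, all lower, with a median log2 fold change of -1.33. Alas2, the first enzyme of haem synthesis in erythroid cells, had -1.38 ± 0.31, the globin Hbb-bs -1.29 ± 0.33, and the erythroid transcription factor Gata1, named among the shared genes, -1.56 ± 0.31. Without A2 none of the 7 was called by limma, with a median of -1.06. The summed level of the list was 126100 to 249500 in the samples numbered 2, inside the reference range of 148500 to 1083000 or, for G2, below it. In the samples numbered 1 the summed level was 161900 to 260200. Alas2 read 2894 to 6978 in G3 to G6, against 6064 to 21630 in the reference samples of A, B and C. Among the latter it read 16470 to 21630 at number 4 and 6064 to 8501 at number 3. In bulk tissue fewer cells of a type and less RNA per cell cannot be told apart.

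Over all genes, 545 (1.78%) had all 4 samples numbered 2 above the 16 others, and 352 (1.15%) had them below. The following counts are of list members called, beside 8.45% of all genes higher and 6.6% lower, and medians are of log2 fold changes, where the median of all genes is 8e-04.

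Genes of cell division were higher, with the largest differences in A2 and C2. Of 30 proliferation genes 27 were higher and none lower, 17 of them shared by all 4 letters, with a median of 1.54. In the F test among letters, described further on, 12 of the 30 were called, against 0.779% of all genes. By letter the median difference was 2.68 in A2, 1.94 in C2, 1.05 in G2 and 0.48 in B2. Mki67, the antigen Ki-67 of cycling cells, read 4647 in A2, 2644 in C2, 1524 in G2 and 1103 in B2, against 557 to 991 (median 707). All 4 exceeded the reference, and the log2 fold change was 1.57 ± 0.24 (adjusted p = 0.000277, limma). Top2a, whose promoter is shown above, read 4362, 2638, 1510 and 1039 in A2, C2, G2 and B2, against at most 882, with 1.93 ± 0.28. Rrm2, a subunit of ribonucleotide reductase, had 2.21 ± 0.32, and Tpx2 of the mitotic spindle 1.94 ± 0.27. Without A2 22 of the 30 were called, and without A2 and C2 10. The samples numbered 1, outside the comparison, overlapped the samples numbered 2 for these genes: Mki67 read 1729, 1633, 1105 and 1007 in A1, B1, C1 and G1, and Top2a 1757, 1606, 1091 and 729. Pimreg read 273, 236, 201 and 39.3 in the same order.

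**Figure D2:**
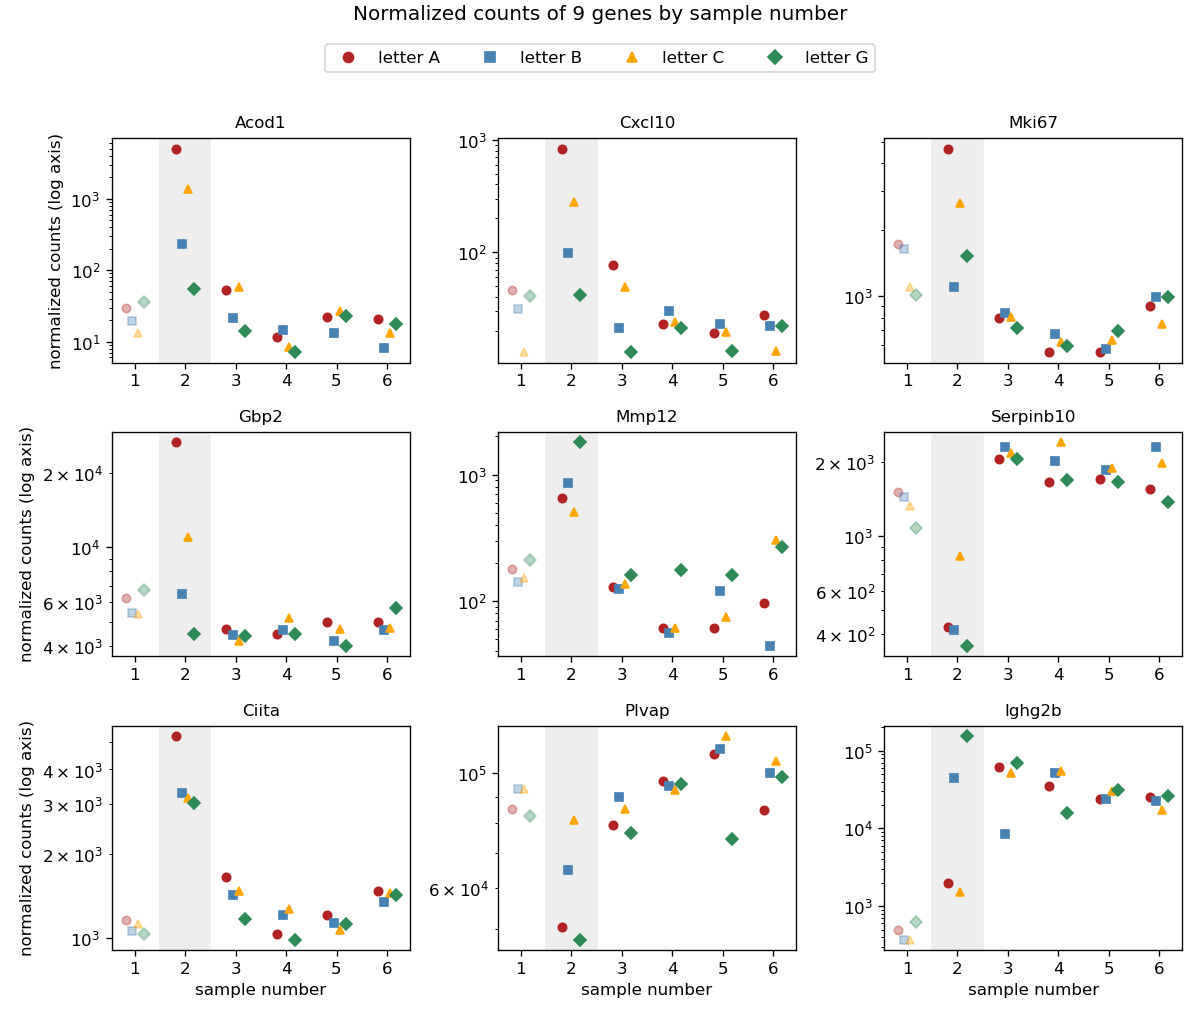
Normalized counts of 9 genes (vertical log axes) by sample number (horizontal), 1 point per sample, with the letter as symbol and the samples numbered 2 on grey; the number 1 samples, outside the comparison, are pale. Mki67 and Ciita are higher and Serpinb10 is lower in each of the 4 samples numbered 2 than in the 16 others, while Gbp2 is high in A2 (26550) and C2 (10970) and Ighg2b is low in those (1958 and 1501).

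Macrophage and antigen presentation genes were higher. Of 24 macrophage genes 14 were higher and none lower, 11 of them shared, with medians of 1.15, 0.67, 0.57 and 0.88 in A2, B2, C2 and G2. C1qa, a chain of complement C1q made by macrophages, read 9365 in A2, 6846 in B2, 6613 in C2 and 5627 in G2, against 2176 to 3621, with 1.29 ± 0.13 (adjusted p = 6.97e-06, limma). Apoe, which carries lipids, was highest in G2 (169300) and above all reference samples in the other 3 (71710 to 91930), with 1.17 ± 0.15. Fcrls and Ms4a7, macrophage genes named after their values were seen, had log2 fold changes of 2.31 ± 0.22 and 2.09 ± 0.20. Spp1, which encodes osteopontin, had 2.25 ± 0.56, a call lost without A2 (adjusted p = 0.114). Of 18 antigen presentation genes 16 were higher and none lower, 8 of them shared, with medians of 1.22 in A2, 0.37 in B2, 0.59 in C2 and 0.15 in G2, and 6 of the 18 were called in the F test among letters. Ciita, the transactivator of MHC class II genes, read 5265 in A2, 3307 in B2, 3167 in C2 and 3037 in G2, against 983 to 1645, with 1.51 ± 0.12 (adjusted p = 1.65e-06, limma). The class II genes H2-Aa, H2-Ab1 and H2-Eb1 had 1.27 ± 0.13, 1.37 ± 0.14 and 1.24 ± 0.13, and for each of them C2 was the lowest of the 4 samples. Without A2 and C2, 7 macrophage and 7 antigen presentation genes were called.

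Chemokine, acute phase and interferon-stimulated genes were higher. Of 30 chemokine ligands 16 were higher and 2 lower, 11 of the higher ones shared by all 4 letters and none called in the F test among letters described further on, with medians of 1.70 in A2, 0.80 in C2, 0.34 in B2 and 0.36 in G2. Without A2, 10 chemokine ligands were called higher and 1 lower, and without A2 and C2 1 in each direction. Of 22 acute phase and cytokine genes 10 were higher and none lower, 4 of them shared, and 2 were called without A2. Of 30 interferon-stimulated genes 14 were higher and none lower, and 1 of those 14 was shared by all 4 letters. The F test among letters called 7 of these 30 and 4 of the 22 acute phase and cytokine genes. The median of the interferon-stimulated genes was 1.40 in A2, 0.70 in C2, 0.17 in B2 and -0.22 in G2, and 30 of 30 lay above the letter's mean in A2 and C2 against 25 in B2 and 4 in G2. Without A2, 2 of these 30 were called, and without A2 and C2 none was called by limma. Ifi27l2a, the shared gene of the list, had 0.99 ± 0.16 (adjusted p = 0.000584, limma). Isg15, a ubiquitin-like protein, read 2625 in A2, 1178 in C2, 590 in B2 and 378 in G2, against 324 to 789 (median 518), so that B2 and G2 lay inside the reference. Its call (0.83 ± 0.26, adjusted p = 0.04, limma) was lost in 12 of 31 alternatives, and Cxcl1, a neutrophil attractant (0.98 ± 0.33, adjusted p = 0.0475), lost it in 19. Ptx3, a pentraxin of the acute phase, was above all reference samples in each letter, with 1.48 ± 0.22, and read 3800 in A2 and 925 to 1078 in the other 3.

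Of 18 neutrophil genes 3 were higher (Retnlg, Csf3r and Clec4e) and none lower. In A2 13 of the 18 lay above the letter's range, in C2 8, in G2 3 and in B2 1. Of all genes, 28.3% lay above it in A2, 25% in C2, 26% in G2 and 23% in B2. The median difference of the neutrophil genes was 1.63 in A2, 0.85 in C2, -0.12 in B2 and -0.36 in G2. S100a8 read 6154 in A2 and 4048 in C2 but 1546 in B2 and 867 in G2, against 693 to 3353, and it was not called (0.83 ± 0.38, adjusted p = 0.158, limma). The summed level of the list was 41350 in A2 and 26320 in C2, above the reference range of 6262 to 20740, and 10910 and 8418 in B2 and G2, inside it. No neutrophil gene was called by limma without A2. The part of neutrophil RNA in the values of Lcn2, Cxcl1 and the other acute phase genes was not tested.

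T and NK cell genes were higher in 12 of 22, none lower, with 6 shared. Cd2, an adhesion receptor of T cells, was above all 16 reference samples in each letter (940 to 1245 against 443 to 794), with 0.95 ± 0.14. Ctla4, an inhibitory receptor of T cells, had 1.46 ± 0.34 (adjusted p = 0.0062, limma) and 0.0583 without A2, and 1 of the 22 was called then. Complement genes were higher in 7 of 14, among them C3, the central component of the cascade, at 26940 to 67900 against 11700 to 22320, with 1.07 ± 0.17. Without A2 3 complement genes were called, and without A2 and C2 none by limma. Sterol and fatty acid synthesis genes were higher in 7 of 17, none of them shared by all 4 letters, with a median of -0.11 in G2 against 0.49 to 0.90 in the others. None of the 17 was called by limma without A2.

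**Figure D3:**
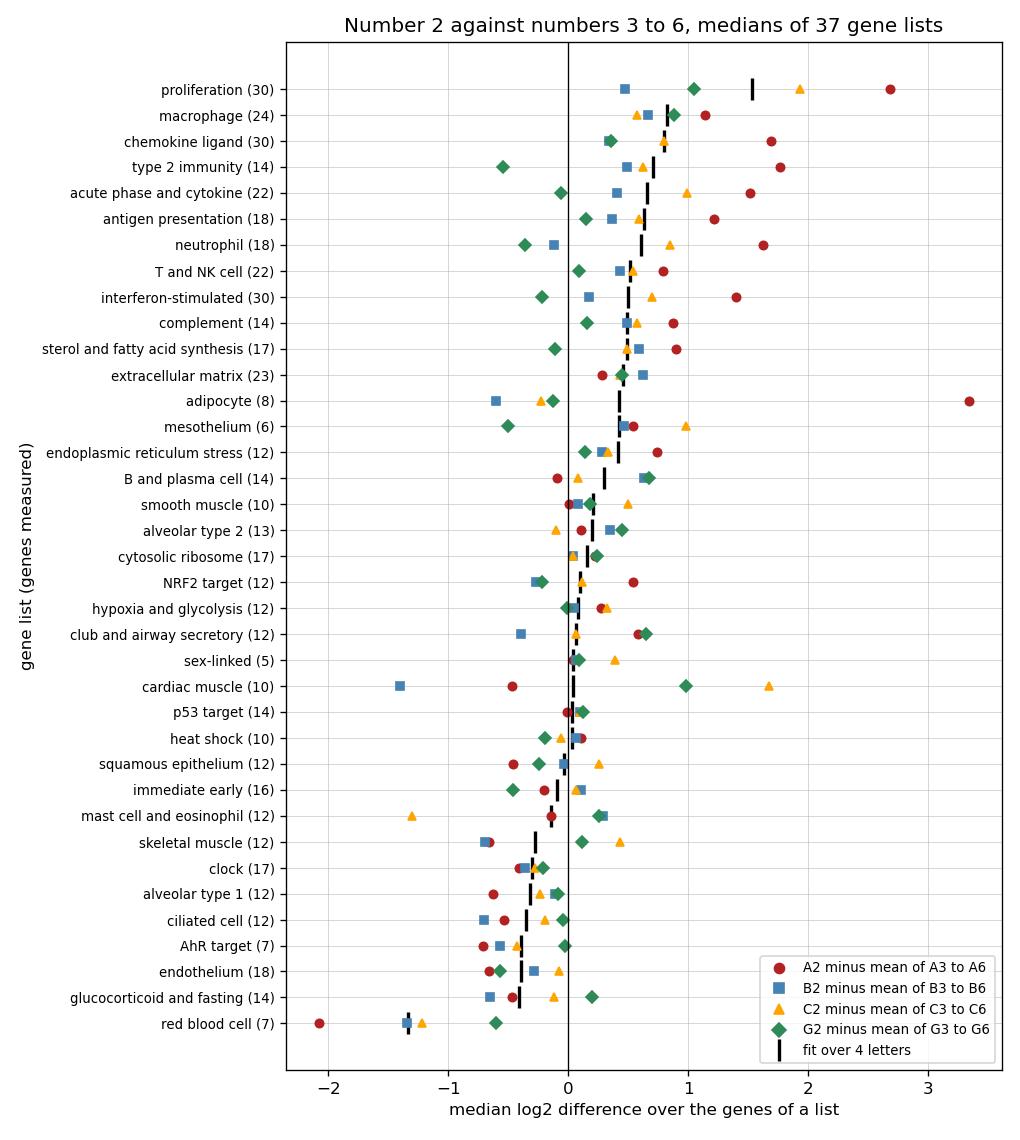
Median log2 difference (horizontal) of 37 gene lists (vertical, genes measured in brackets), for A2, B2, C2 and G2 against numbers 3 to 6 of their letters, with a bar for the fit over the 4 letters. Proliferation lies at 1.54 and red blood cell genes at -1.33; the 4 letters lie together for macrophage genes and spread for interferon-stimulated, neutrophil and adipocyte genes.

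Extracellular matrix genes were higher in 14 of 23, none lower, with 11 shared, and the largest median was that of B2 (0.62). Col1a1, the main chain of type I collagen, read 75460 in A2, 88680 in B2, 56770 in C2 and 92340 in G2, against 19870 to 43590, with 1.43 ± 0.16 (adjusted p = 3.01e-05, limma). Timp1, an inhibitor of metalloproteinases, and Tnc, the matrix protein tenascin C, were above all reference samples and highest in A2, with 1.26 ± 0.23 and 1.56 ± 0.29. Elastin (Eln) went otherwise: it read 245700 in B2, 220900 in G2 and 92010 in C2, above the reference range of 36120 to 78240, but 45380 in A2, inside it. Its log2 fold change was 1.24 ± 0.28 (adjusted p = 0.00541, limma). The difference among the letters was not called for Eln (F test adjusted p = 0.066). In the samples numbered 1 Col1a1 read 86790, 96300, 98920 and 67330 (A1, B1, C1 and G1), and the summed matrix list 1618000 to 1958000, against 1125000 to 1596000 in the samples numbered 2. With the samples numbered 1 added to the reference, the calls of Eln (adjusted p = 0.243) and Tnc (0.0716) were lost. Without A2, 16 matrix genes were called.

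Genes of the gas-exchange surface were lower. Of 18 endothelial genes 10 were lower and none higher, 7 of them shared, with medians of -0.66 in A2, -0.57 in G2, -0.29 in B2 and -0.08 in C2. Plvap, the diaphragm protein of capillary fenestrae, had -0.65 ± 0.10, Ednrb, the endothelin B receptor, -0.70 ± 0.11, and Gpihbp1, which anchors lipoprotein lipase in capillaries, -0.76 ± 0.14. Of 12 alveolar type 1 genes 7 were lower and none higher. Cav1, the caveolin of caveolae, read 30970 in A2, 41960 in B2, 48890 in C2 and 43830 in G2, against 56490 to 76950, with -0.65 ± 0.08 (adjusted p = 7.33e-05, limma). Clic5, a chloride channel protein, was lower in each letter without overlap (-0.48 ± 0.07), whereas Ager, the receptor RAGE, was called at -0.23 ± 0.07 and lost the call without A2 (adjusted p = 0.376). Without A2, 7 endothelial and 3 type 1 genes were called.

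The labelled tissue showed its defining marker at high level throughout: surfactant protein C (Sftpc) read 611300 to 932800 in the samples numbered 2 and 610400 to 922500 in the reference, a log2 fold change of 0.07 ± 0.13 that was not called. Of 13 alveolar type 2 genes 3 were higher and none lower, among them Sftpa1 (0.53 ± 0.14, lost without A2), and 1 was called after scaling to the 75th percentile. Of 12 club and airway secretory genes 2 were higher and 2 lower. Scgb1a1, the club cell secretoglobin, was lower (-0.53 ± 0.12, adjusted p = 0.00528, limma; 0.0636 without A2), while Bpifb1, an antimicrobial protein of the airway, was higher (2.54 ± 0.53). Of 12 ciliated cell genes 3 were lower, Tppp3 without overlap of the groups (-0.51 ± 0.09). Of 7 AhR targets 2 were lower, and of 12 NRF2 targets 3 were higher and 2 lower, with Hmox1 (haem oxygenase) at 0.93 ± 0.23, lost without A2, and Gsta3 (a glutathione transferase) at -0.61 ± 0.08.

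The remaining lists held few calls or none. Of 17 clock genes 3 were lower, among them Tef, an output transcription factor of the clock (-0.77 ± 0.17, adjusted p = 0.0632 without A2). Of 14 glucocorticoid and fasting genes 2 were lower, such as Klf9 (-0.66 ± 0.19), and 1 was higher, the metallothionein Mt1 (0.85 ± 0.21), and all 3 calls were lost without A2. Of 12 hypoxia and glycolysis genes 4 were higher and 1 lower, with Hk2, a hexokinase, at 1.12 ± 0.24 (adjusted p = 0.065 without A2). Of 14 type 2 immunity genes 3 were higher and 3 lower, with Retnla and Alox15 in opposite directions. Among the lists with higher calls and no lower ones were cytosolic ribosome (6 of 17), endoplasmic reticulum stress (3 of 12), B and plasma cell (2 of 14) and p53 targets (2 of 14). After scaling to the 75th percentile limma called none of the ribosome genes or p53 targets, and 1 B and plasma cell gene. It also called none of the ribosome genes without A2. No gene was called in the lists for mast cells and eosinophils, smooth, cardiac and skeletal muscle, squamous epithelium, mesothelium, immediate early genes, heat shock and sex-linked genes. Without A4 and B4, 4 smooth muscle genes were called higher, and 4 skeletal muscle genes higher and 1 lower.

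Whether the difference varied among the letters was asked with an F test on the letter by number 2 interaction, in which 0.779% of genes (239) were called. A2 had the largest difference in 183 of them, C2 in 29, G2 in 21 and B2 in 6. The count rests on A2 and G2: limma called 0 genes without A2 (1767 at an unadjusted p under 0.05) and 41 without G2, but 352 without C2 and 216 without B2. Of the reference samples, leaving out A5 (159) or C4 (152) moved it by over 1.5 times. Within letters, where 1 sample stands against 4 and is assumed to vary like them, 12.6% of genes were called in A2 (3874), 1.07% in C2 (327), 0.486% in G2 (149) and 0.117% in B2 (36). The reference samples left in decide the smaller counts: that of C2 fell to 199 without C4 and 213 without C5, that of B2 was 68 without B3 and 21 without B5, and that of G2 fell to between 28 (without G4) and 98 (without G3) in the 9 fits that moved it by over 1.5 times.

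By position alone, 1601 genes were above their letter's range in A2 and C2 but not in B2 or G2, and 1705 were below it. These were the largest counts of the 6 pairs of samples in each direction, the next being B2 with G2 above (1033) and A2 with B2 below (1099). All 4 together were above in 1285 genes and below in 953. These counts are given without a test, and the split into A2 with C2 and B2 with G2 was known from earlier results of these data.

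A gene was assigned to A2 and C2 only when the F test called it, A2 and C2 were both called in 1 direction within their letter, and B2 and G2 were neither called nor outside their range on that side. By this rule 12 genes (0.0391%) were higher and 17 (0.0554%) lower, 29 in all, but 11 without C4, 14 without C5 and 18 without G5. Among the higher genes, Birc3, an inhibitor of cell death in the NF-kappaB pathway, read 3559 in A2 and 1975 in C2, but 1223 in B2 and 928 in G2, against 783 to 1319. A2 and C2 lay above all reference samples and B2 and G2 inside their range (F test adjusted p = 0.016). Slc39a14, a zinc and iron transporter, read 2529 and 1244 in A2 and C2, 826 and 795 in B2 and G2, and at most 893 in the reference. Rrm1, the large subunit of ribonucleotide reductase, read 6093 and 4338 against 2814 and 2657, and the glycolytic enzyme Pgk1 9395 and 6735 against 4520 and 3916. Spc24 of the kinetochore, Cenpn of the centromere, Chtf18 of the replication fork, Tagap1, Ly6i and the glycolytic enzyme Tpi1 were the other named genes, each above its letter's range in A2 and C2 and not in B2 or G2. Csf3, the growth factor of granulocytes, and Erfe, an erythroid hormone, also met the rule, and are below the level set for naming.

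Immunoglobulin genes made up most of the lower set: 14 of the 17 were immunoglobulin segments, and the others were Jchain (the joining chain of secreted antibody), Tcf21, a transcription factor of lung mesenchyme, named after its values were seen, and 1 unnamed gene model. Ighg2b, a heavy chain constant region, read 1958 in A2 and 1501 in C2, but 45050 in B2 and 153500 in G2, against 8539 to 68790 (median 27910). A2 and C2 lay below all 16 reference samples, B2 inside their range and G2 above it, and the F test gave an adjusted p of 0.0129. Igkc, the kappa constant region, named after its values were seen, read 24680, 20670, 222900 and 626200 in A2, C2, B2 and G2, against 61730 to 303200. Jchain, likewise named afterwards, read 5809, 4614, 30690 and 69570 in the same order, against 13170 to 38980. Igha, the IgA heavy chain, did not follow (F test adjusted p = 0.788), with 18800 in A2 and 13980 in C2 against 10270 to 32240.

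Of all 332 immunoglobulin rows, A2 lay below its letter's range in 225 and C2 in 240, whereas B2 lay above it in 210 and G2 in 231. None was called over the 4 letters by limma, and 39 were called by the F test. Over all genes, A2 lay below its range in 32.1% and C2 in 23%, B2 lay above it in 23% and G2 in 26%, and the F test called 0.779%. Immunoglobulin made up 0.118% of the values in A2, 0.0956% in C2, 0.882% in B2 and 2.17% in G2, against 0.27% to 1.12% in the reference. Many of the segments are similar in sequence and the row names are of mouse form, so the values of single segments are uncertain.

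**Figure D4:**
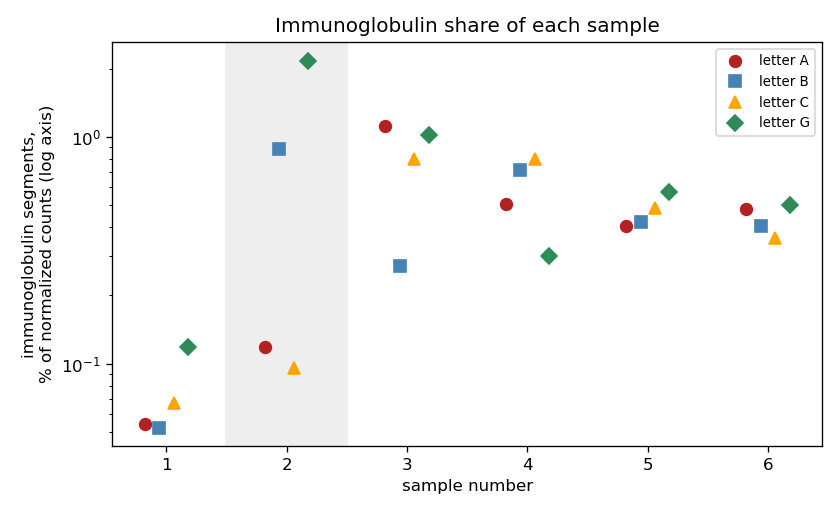
Immunoglobulin segments as a percentage of the normalized counts (vertical log axis) by sample number (horizontal), 1 point per sample, with the letter as symbol and the samples numbered 2 on grey. A2 and C2 lie at 0.118% and 0.0956%, below the 16 samples numbered 3 to 6, and G2 lies above them at 2.17%.

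Between the shared genes and those of A2 and C2 only stood genes graded from A2 over C2 and B2 to G2. Gbp2 read 26550 in A2, 10970 in C2, 6463 in B2 and 4455 in G2, against 3991 to 5689, so that 3 samples were above the reference and G2 was inside it. The difference varied among the letters (F test adjusted p = 0.000157), and the gene was also called over the 4 letters (1.05 ± 0.22, adjusted p = 0.00387, limma). Nos2, the inducible nitric oxide synthase, named after its values were seen, read 16690, 4936, 1458 and 645 in the same order, against 578 to 1662 (F test adjusted p = 0.00378). Its call over the 4 letters (1.90 ± 0.47, adjusted p = 0.00941, limma) was lost without A2 (adjusted p = 0.13). Cd274, the ligand PD-L1, likewise named afterwards, read 1642, 720, 399 and 267, against 297 to 517 (F test adjusted p = 0.00548).

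Markers of other tissues moved with single samples. Of 8 adipocyte genes 6 were above the letter's range in A2, against 28.3% of all genes. The summed level of these 8 was 21530 in A2, 6664 to 7796 in the other samples numbered 2 and 6911 to 15150 in the reference. Ucp1, the uncoupling protein of brown fat, named after its values were seen, read 6881 in A2 and at most 3.19 in B2, C2 and G2. The reference sample A4 read 273, and the other reference samples at most 12. Summed levels of 12 skeletal muscle genes were 2618 to 3789 in the samples numbered 2 and 1752 to 93610 in the reference, and those of 12 squamous genes 2613 to 3180 and 1997 to 21500. The part of these tissues in the results was not tested. Without A4 and B4, reference samples known from earlier results to be high in squamous or skeletal muscle genes, 4426 genes were called.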

How the data were processed

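The authors deposited 1 signal table of 30667 genes and 24 samples. The form of the values is that of read counts adjusted toward a common library size. STAR and the mouse build GRCm38 are named in the submitters' processing notes without their role. The counting tool, the annotation and the normalization are not given in the sources used here. Of the row names 16143 (52.6%) match rat RefSeq symbols, and 78.4% of the called genes do. Genes with close copies or overlapping antisense genes are uncertain.

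The values were taken as log2(value + 1) and tested with limma 3.58.1 (R 4.3.3), two-sided, with trend, for genes of a mean of at least 0.5, which all 30667 passed. The letter was the block, as the comparison sets it, and an interaction model gave the F test (3 degrees of freedom) and the differences within letters. The deviations of samples with the same letter correlated at -0.26 to 0.23, over 0.1 in 3 of 16 pairs, so the letters are not taken to pair the samples. The code was tested on simulated data. The alternatives were another pseudocount, filter, scaling, weighting, reference and each sample left out.

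The members, the 37 gene lists and the tests were chosen with earlier results of these data known. The named genes are the 12 highest and 12 lowest shared genes, the 12 highest and lowest of A2 and C2 only, 12 preset genes, and per list up to 4 called members of the largest change (up to 2 where none was called). Gene models and genes of a mean under 50 were not named, with exceptions stated. Promoters come from RefSeq GRCr8.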

Additional observations from a re-analysis of the deposited data

Results flagged for a closer look

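These checks covered 107 of the genes named in the text, without Fcrls, Ms4a7, Tcf21, Csf3 and Erfe. In 6 of the 107, A2 lay apart from the other 3 samples numbered 2 by more than the 95% limit of Dixon's test. Chance gives about 1 in 20. The values in A2 were 5260 for Ciita, 3800 for Ptx3, 47000 for Clic5, 4120 for Hk2, 6880 for Ucp1 and 2280 for Adipoq. Ucp1 and Adipoq were named after their values were seen, so their place among the 6 is no finding.

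In 21 of the same 107 genes the difference of number 2 from numbers 3 to 6 varied among the 4 letters, by the interaction F test of limma, against 0.779% of all genes. Of the 21, 16 met the rule for A2 and C2 only, which asks for this call, so their number is no finding. Igkc and Jchain among the 16, and Nos2 and Cd274 among the rest, were named after their values were seen. The adjusted p was 0.000157 for Gbp2, 0.0012 for Slc39a14, 0.00378 for Nos2, 0.00547 for Rrm1, 0.00548 for Cd274, 0.0121 for Pgk1, 0.0129 for Ighg2b, 0.0133 for Ly6i, 0.0149 for Ighg2c, 0.016 for Birc3 and 0.0171 for Jchain. It was 0.0181 for Igkc, 0.0189 for Isg15, 0.0229 for Ighg1, 0.0255 for Tagap1, 0.0257 for Saa3, 0.0333 for Chtf18, 0.0353 for Ighg3, 0.0381 for Spc24, 0.0419 for Tpi1 and 0.0482 for Cenpn. Without A2 limma called none of all genes in this test (1767 at an unadjusted p under 0.05), and without G2 it called 41.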

How the results depend on the processing

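Leaving out each sample in turn gave 1501 to 4843 calls over the 4 letters, 1243 to 3081 shared ones, 0 to 352 in the F test among letters, 3205 to 4184 within A, 21 to 68 within B, 199 to 362 within C, 28 to 188 within G and 11 to 34 genes of A2 and C2 only. The lowest counts over the 4 letters, shared and in the F test came without A2, and the F test called 41 without G2. Where a sample numbered 2 is left out, shared asks only for the 3 letters left, as in the 1243 (without A2) and 3081 (without G2). Without A2 and C2, a setting chosen after seeing the data, 805 genes were called, 801 of them shared by B2 and G2, the letters left. This count does not compare with the 2108 shared by all 4 letters. In the same setting the F test called 0 by limma (1181 at an unadjusted p under 0.05). There, of the called genes among the 107 checked above, the log2 fold change turned sign or went to 0 for Isg15 (-0.12), Cxcl1 (-0.05), Birc3 (0), Spc24 (-0.05), Ly6i (0), Rrm1 (0), Pgk1 (-0.04) and Tpi1 (0). Of those not called, S100a8 (-0.14), S100a9 (-0.02), Cd274 (-0.24), Ucp1 (-0.11), Adipoq (-0.34) and Plin1 (-1.98) turned, as did Ighg1, Ighg2b, Ighg2c, Ighg3, Igkc and Jchain, to 1.14 to 1.68. Birc3, Spc24, Ly6i, Rrm1, Pgk1, Tpi1, Jchain and these immunoglobulin genes met the rule for A2 and C2 only. That rule keeps B2 and G2 from lying outside their range on that side, so the turn of these genes is no finding. With 1 number as reference the calls were 572 (number 3), 470 (number 4), 2899 (number 5) and 892 (number 6), with fewer samples. The F test called 392 genes with a pseudocount of 0.1 and 133 with 75th percentile scaling. Within B a pseudocount of 0.1 gave 104 calls, and within G 235, with 93 under 75th percentile scaling and 94 without A4 and B4. Robust estimation left 17 genes of A2 and C2 only. Fitted with no replicate block for the letter, 4596 genes were called, and 4354 of them were among the 4616. A lower filter removed no gene and tests nothing. For the other settings the counts stayed within 1.5 times. The read depth is unknown, so no counting error can be given for a single value.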

Other observations

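The samples numbered 1, which enter no comparison here, had immunoglobulin shares of 0.0522% to 0.119%, below all 16 samples numbered 3 to 6, and A2 and C2 lay inside this range. Ighg2b read 492 in A1, 370 in B1, 368 in C1 and 631 in G1. Elastin (Eln) read 202800, 208900, 217500 and 144900 in A1, B1, C1 and G1, beside 245700 and 220900 in B2 and G2. Serpinb10 read 1083 to 1506 in the samples numbered 1, above all 4 samples numbered 2.

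Fat genes, named after their values were seen, were also high in 2 reference samples. Adipoq, the hormone adiponectin, read 2283 in A2, 1404 in A4 and 399 in B5, and Plin1, the perilipin of lipid droplets, read 2435, 1210 and 279 in the same samples.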
